A study of Homo sapiens with 6 samples.

Results

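Respiratory chain subunits were compared between p53 KO and p53 WT cells. These are the genes of complexes I to IV and of the ATP synthase, complex V. Members were taken by gene symbol alone, as the NDUFA, NDUFB, NDUFC, NDUFS and NDUFV genes, SDHA to SDHD, the UQCR genes, COX4 to COX8 with their isoforms, the ATP5 genes, and the mitochondrially encoded ND, CO, CYB and ATP genes. The rule found 95 of the 55882 gene rows of the count table, 82 encoded in the nucleus and 13 on mitochondrial DNA. After a filter on low counts 89 members could be tested, 76 nuclear and all 13 mitochondrial, among 22352 genes tested in all.

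The 6 libraries were 3 of p53 KO and 3 of p53 WT DIvA cells. DIvA cells derive from U2OS, a human osteosarcoma line, and carry the restriction enzyme AsiSI in a form that 4-hydroxytamoxifen (4-OHT) sends into the nucleus, where it cuts DNA. Both genotypes had 300 nM 4-OHT for 5 h, so every comparison is between genotypes under the same treatment, and no library without 4-OHT was analysed here. The extent of DNA cutting in each genotype was not measured in these data. The labels do not say whether the p53 KO cells were 1 clone or several, nor whether the replicates were separate cultures, so the p-values measure the spread between these libraries, which may be technical.

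The electron transport chain passes electrons from NADH through complex I, and from succinate through complex II, to ubiquinone, then through complex III, cytochrome c and complex IV to oxygen. Complexes I, III and IV pump protons, and the ATP synthase uses the gradient to make ATP. Nuclear genes supply most subunits, which are imported from the cytosol, while mitochondrial DNA encodes a core of each complex except complex II. Mitochondrial genes are transcribed as long precursors from both strands and cut into single RNAs, so that the heavy-strand promoter serves most of them and the light-strand promoter serves MT-ND6.

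Total counts were 72621732, 40043686 and 20393909 in p53 KO replicates 1 to 3, against 79767519, 67889247 and 24347609 in p53 WT replicates 1 to 3. CDKN1A, a cell cycle inhibitor induced by p53, had 49.1, 41.8 and 46.5 CPM (counts scaled to a common library size) in p53 KO libraries against 572, 520 and 532 CPM in p53 WT libraries, a log2 fold change of -3.56. Every p53 KO value lay below every p53 WT value for CDKN1A, and likewise for MDM2, the p53-induced ubiquitin ligase that degrades p53, whose log2 fold change was -1.93. Of 7 mesenchymal markers 6 were above 1 CPM, with sums of 3898 to 4263 CPM in p53 KO and 7076 to 7532 CPM in p53 WT. COL1A2 was under 1 CPM in all 6 libraries. The 5 leukocyte markers summed to at most 1.296 CPM in p53 KO and 2.25 CPM in p53 WT, with LYZ at 0. The 3 endothelial markers summed to at most 2.93 CPM in p53 KO and 3.29 CPM in p53 WT. The 6 striated muscle markers summed to 5.36 to 8.66 CPM in p53 KO and 0.572 to 1.37 CPM in p53 WT, the 5 epithelial ones to 13.96 to 20.8 CPM against 7.99 to 12.8 CPM, and the 4 neuronal ones to 91.0 to 114 CPM against 138 to 163 CPM. The part of these markers in the results was not tested.

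One library stood apart for genes of short coding length, which most nuclear subunits are. Over 1211 protein-coding genes with a coding length of at most 570 bp, p53 KO replicate 3 lay at a median of 0.17 (log2) above the mean of the 6 libraries, and p53 WT replicate 1 at 0.09. Among the genes with the longest coding lengths the same libraries lay at -0.15 and -0.14. The 76 tested nuclear subunits had a median coding length of 460.5 bp, and 53 of them were in the shortest class. Of the 76, 69 were higher in p53 KO replicate 3 than in the mean of the other p53 KO libraries, with a median log2 difference of 0.37, against 0.16 for the 13 mitochondrial members and -0.02 for all tested genes. In the shortest class as a whole, p53 KO replicate 3 lay at 0.17 where replicates 1 and 2 lay at -0.01 and -0.09, and the part of coding length in the subunits' values was not tested. Over the 76, p53 WT replicate 1 lay above the mean of the other p53 WT libraries by a median log2 difference of 0.22. Counts over nuclear subunits are therefore given with and without p53 KO replicate 3, which leaves p53 WT replicate 1 in. As a second check, the median deviation of each coding-length class was taken off each library.

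**Figure D1:**
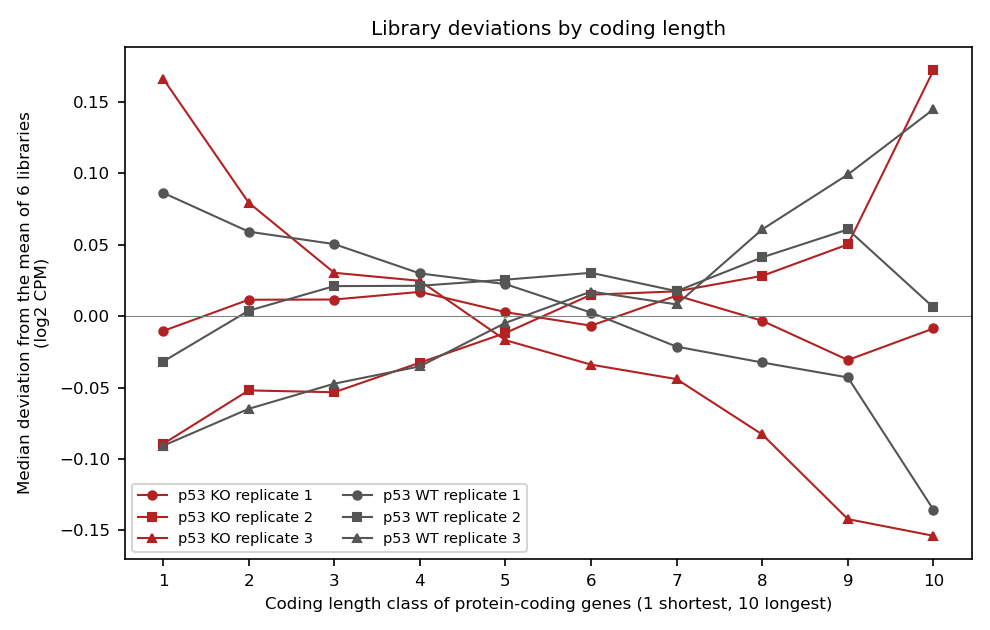
Median deviation of each library from the mean of the 6 libraries (log2 CPM, y axis) in 10 classes of protein-coding genes ordered by coding length (x axis, short to long), with 1 line per library. The line of p53 KO replicate 3 starts at 0.17 in the shortest class and ends at -0.15 in the longest, and p53 KO replicate 2 runs the other way, ending at 0.17.

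In p53 KO cells 23 of the 89 tested members were higher and 10 were lower at an adjusted p under 0.05, by edgeR's quasi-likelihood test with Benjamini-Hochberg adjustment over all tested genes. Over all tested genes the shares were 12.1% higher and 14.4% lower. In such bulk RNA, fewer cells of a type and less RNA per cell cannot be told apart. The median log2 fold change (p53 KO over p53 WT) was 0.12 over the members and 0.01 over all tested genes. Both origins contributed, with 20 higher and 9 lower of 76 nuclear subunits (median 0.13) and 3 higher and 1 lower of 13 mitochondrial subunits (median 0.12). The largest log2 fold changes among the members called were 0.88 for COX5A and -0.67 for ATP5S, so no subunit called differed by as much as 1 on the log2 scale. Values of the genotypes stood fully apart in 36 of the 89 members, against 40.8% of all tested genes. Many tested genes were lower in level than the members. Of the 9829 tested genes at least as high as the lowest tested nuclear member but COX7A1, 1694 were higher and 2153 lower. The genotypes stood fully apart in 5070 of these 9829. Without p53 KO replicate 3 the same test called 16 members higher, all of them among the 23, and 18 lower, where the shares over all tested genes were 11.7% and 13.1%, and the members' median was 0.03. After the coding-length offset it called 27 higher and 15 lower, with 13.7% and 15.3% over all genes, and held all 33 of the first calls.

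Single libraries decided part of these counts. With p53 WT replicate 2 left out, 11 members were higher and 7 lower (8.37% and 10.2% of all tested genes), and with p53 WT replicate 3 left out 12 were higher and 9 lower (8.39% and 10.7%). Without p53 WT replicate 1 there were 26 higher and 6 lower (9.7% and 12.1%, or 21.8% in either direction), without p53 KO replicate 1 there were 24 and 6 (10.2% and 12.4%), and without p53 KO replicate 2 there were 27 and 7 (9.87% and 12.7%). Of the nuclear members called, 13 passed whichever library was left out, among them COX5A, COX4I1, COX7C, SDHD, NDUFV2, NDUFB4 and ATP5O, higher in p53 KO, and NDUFB5, NDUFV3, UQCRC2, ATP5A1 and ATP5S, lower. The other 16 each missed the threshold without at least 1 library, at edgeR adjusted p values of 0.0506 to 0.196, with no change of direction. Without p53 WT replicate 2 these were SDHB, ATP5F1, ATP5G3, NDUFB3, NDUFA4, NDUFB11, COX7B, NDUFC2, ATP5B, NDUFA12, COX6A1, NDUFB10, ATP5H, ATP5E and NDUFA3. Without p53 WT replicate 3 they were the same genes except ATP5F1, ATP5H and NDUFA3. Without p53 WT replicate 1 they were ATP5F1, NDUFB3, NDUFA12, NDUFB10, ATP5H and UQCR11, without p53 KO replicate 1 ATP5F1, NDUFC2, NDUFB10, ATP5H and UQCR11, and without p53 KO replicate 2 ATP5F1, NDUFB10 and ATP5H. The 4 mitochondrial calls held without any one of the 6 libraries.

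By complex the counts stand beside the shares of 12.1% higher and 14.4% lower over all tested genes, and 1 library moved several of them. In complex IV 6 of 15 tested members were higher and 0 were lower, with a median of 0.32, and without p53 KO replicate 3 these were 3, 0 and 0.13. Complex II had 2 of 4 higher and 0 lower with all libraries and without that one, with medians of 0.23 and 0.19. Complex I had 10 higher and 4 lower of 43, with a median of 0.11, and without p53 KO replicate 3 it had 8 higher and 9 lower, with a median of -0.02. Complex V had 4 higher and 4 lower of 18, with a median of 0.12, and without that library 2 higher and 5 lower, with a median of 0.02. Complex III had 1 higher, the mitochondrial MT-CYB, and 2 lower of 9, with a median of 0.03, and without that library 1 higher and 4 lower, with a median of -0.10. The balance of complex I thus turned, and those of complexes III and V shifted to lower, when p53 KO replicate 3 alone was left out. That fit still held p53 WT replicate 1, where nuclear subunits were also high. After the coding-length offset, with all libraries, complex I had 12 higher and 7 lower, complex III 2 and 3, and complex V 4 and 5. Complex IV then had 7 and 0 and complex II 2 and 0, beside 13.7% and 15.3% of all tested genes. The local median offset, described below, takes off the median log2 fold change of neighbouring genes. With it complex IV had 1 higher and 0 lower, and complex II 1 and 0. Complex I had 4 and 3, complex III 2 and 1, and complex V 2 and 0, beside 9.47% and 10.2% of all tested genes. Differences between complexes were not tested.

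**Figure D2:**
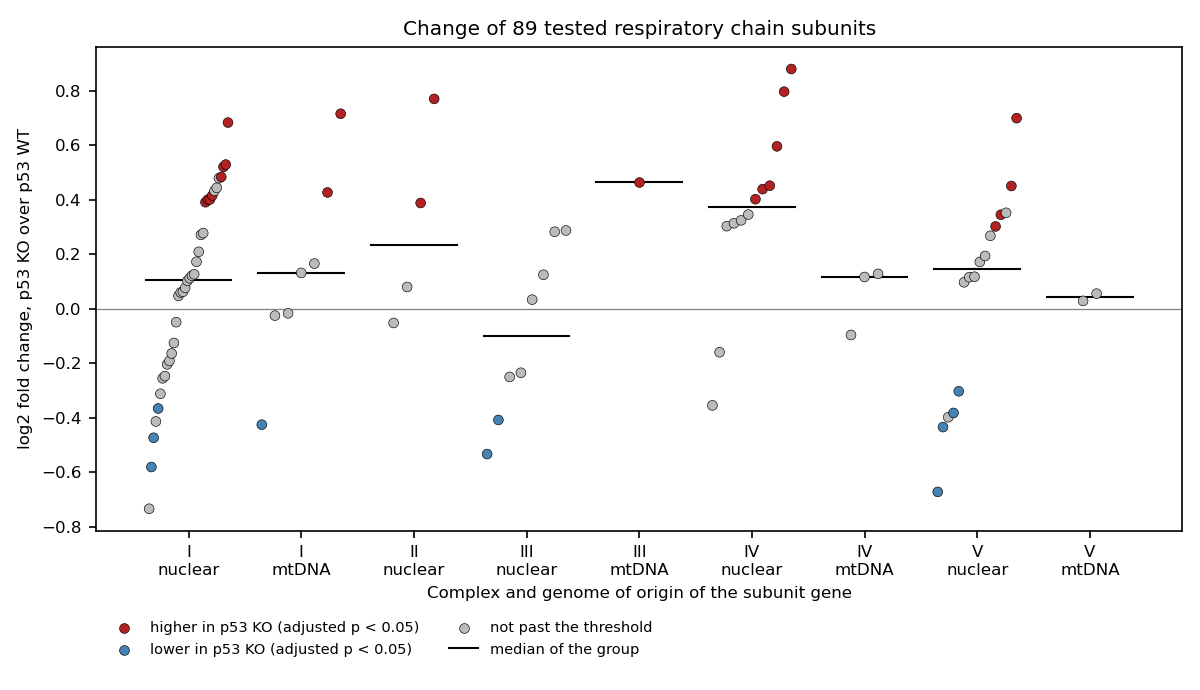
Log2 fold change (p53 KO over p53 WT, y axis) of each of the 89 tested subunits, in columns by complex and by nuclear or mitochondrial (mtDNA) origin, with a bar at each column's median. Each point is 1 gene, red or blue where it passed an adjusted p under 0.05; in complex IV all 6 points past the threshold lie above 0, and the nuclear column of complex III has 2 past it below 0 and none above.

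Mitochondrial RNA formed one large and stable share of these libraries. The 13 mitochondrial members took 4.43%, 4.50% and 4.78% of all counts in p53 KO libraries and 4.18%, 4.28% and 4.26% in p53 WT libraries, so the groups did not overlap but lay close together. Per kb of coding length the mitochondrial members had a median level of 3183 CPM per kb in p53 KO and 3187 CPM per kb in p53 WT, against 183 and 159 CPM per kb for the tested nuclear members. Summed mitochondrial CPM over summed nuclear CPM was 5.29, 5.52 and 4.76 in p53 KO libraries and 4.89, 5.70 and 5.73 in p53 WT libraries. These ratios overlapped, and the difference of their mean log2 values, -0.07, was smaller than the pooled SD of 0.12. The library with the lowest ratio in p53 KO was replicate 3 and in p53 WT was replicate 1, which are the libraries where short nuclear messages were high. Libraries were made from polyadenylated RNA, so the levels depend on how much of each mitochondrial RNA carried a tail.

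Within this share 4 mitochondrial RNAs differed between the genotypes, and their balance differed more than their sum. They are shown by the start of each gene, because 3 of them are read from one DNA strand and MT-ND6 from the other. The 120 bases below are from the GENCODE 29 transcripts, 5′ to 3′ in the sense of each RNA, with positions on GRCh38, which is not the build the counts were made on, and with the first codon in capitals. The RNA of MT-ND6 is rich in G (35.6% G and 7.05% C over the whole gene), whereas the other 12 hold 6.28% to 16.2% G and 29.5% to 36.0% C.
MT-ND1, chrM:3307-3426, plus strand: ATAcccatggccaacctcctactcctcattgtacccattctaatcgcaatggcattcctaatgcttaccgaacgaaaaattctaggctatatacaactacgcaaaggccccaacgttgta
MT-ND2, chrM:4470-4589, plus strand: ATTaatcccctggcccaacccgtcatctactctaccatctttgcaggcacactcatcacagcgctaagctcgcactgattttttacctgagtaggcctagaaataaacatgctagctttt
MT-ND6, chrM:14554-14673, minus strand: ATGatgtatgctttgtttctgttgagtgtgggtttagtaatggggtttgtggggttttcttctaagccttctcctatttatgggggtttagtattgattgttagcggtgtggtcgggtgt
MT-CYB, chrM:14747-14866, plus strand: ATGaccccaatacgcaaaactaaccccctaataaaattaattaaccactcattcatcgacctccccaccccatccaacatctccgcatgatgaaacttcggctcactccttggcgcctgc

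MT-ND6, a membrane subunit of complex I, had 782, 646 and 804 CPM in p53 KO libraries against 442, 448 and 471 CPM in p53 WT libraries. The lowest p53 KO value was well above the highest p53 WT value, and the log2 fold change was 0.71 (SE 0.10, edgeR adjusted p = 0.000105). MT-ND6 made up 1.80%, 1.47% and 1.65% of the mitochondrial members' counts in p53 KO and 1.04%, 1.04% and 1.10% in p53 WT. MT-CYB, the cytochrome b of complex III, had 3471, 3485 and 3938 CPM in p53 KO and 2611, 2657 and 2635 CPM in p53 WT. All p53 KO values were again above all p53 WT values, and MT-CYB rose by a log2 fold change of 0.46 (SE 0.09, edgeR adjusted p = 0.00102).

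MT-ND1 and MT-ND2 encode membrane subunits of complex I, lie close together on the same strand, and moved in opposite directions. MT-ND1 had 2569, 2065 and 2594 CPM in p53 KO against 1682, 1851 and 1846 CPM in p53 WT, a log2 fold change of 0.43 (SE 0.10, edgeR adjusted p = 0.0059). MT-ND2 had 2385, 2376 and 2658 CPM in p53 KO against 3127, 3435 and 3401 CPM in p53 WT, a log2 fold change of -0.43 (SE 0.09, edgeR adjusted p = 0.00222). The groups did not overlap for either gene. The ratio of MT-ND2 to MT-ND1 counts within a library does not depend on scaling, and was 0.928, 1.151 and 1.02 in p53 KO libraries against 1.86, 1.86 and 1.84 in p53 WT libraries. All 4 calls held under each of the 13 alternatives that touch mitochondrial rows, with log2 fold changes of 0.67 to 0.80 for MT-ND6, 0.41 to 0.50 for MT-CYB, 0.37 to 0.52 for MT-ND1 and -0.48 to -0.40 for MT-ND2.

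Nuclear copies of mitochondrial genes can share reads with these genes. The table held 175 rows named as such copies, with counts equal to 1.96% of those of the 13 members, mostly in MTATP6P1 and MTND2P28. Gene by gene the share was larger for these, with 199935 counts in MTATP6P1 against 1433279 in MT-ATP6, and 56694 in MTND2P28 against 887286 in MT-ND2. The values of MT-ATP6 and MT-ND2 are uncertain to that extent. MTND2P28, a nuclear copy of the MT-ND2 region, fell by 0.49 on the log2 scale (edgeR adjusted p = 0.00191), with 145, 162 and 158 CPM in p53 KO and 197, 221 and 236 CPM in p53 WT. MTND1P23 had 3.35, 3.86 and 5.86 CPM in p53 KO and 2.21, 2.69 and 2.42 CPM in p53 WT (edgeR adjusted p = 0.0538). Both copies lay on the same side as the genes they resemble, and the part of shared reads in these values was not tested. MT-TE, the row of the tRNA gene between MT-ND6 and MT-CYB, had 66.5, 47.1 and 73.9 CPM in p53 KO and 27.4, 25.7 and 24.6 CPM in p53 WT, and rose by 1.27 on the log2 scale (edgeR adjusted p = 2.99e-05). No source used here gives the strand setting of the counting, so reads of MT-ND6 and of RNA antisense to it cannot be told apart. MT-RNR2, the large ribosomal RNA, did not pass the test (log2 fold change 0.07).

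The other 9 mitochondrial members did not pass the test. In complex I, MT-ND4 had 6388, 6340.3 and 6509.7 CPM in p53 KO against 5666, 6007 and 5892 CPM in p53 WT, so that its groups did not overlap, with a log2 fold change of 0.13 (edgeR adjusted p = 0.261). MT-ND5 had 2538, 2376 and 2206 CPM in p53 KO and 1958, 2209 and 2182 CPM in p53 WT. MT-ND3 had 631, 611 and 845 CPM in p53 KO and 749, 707 and 668 CPM in p53 WT. MT-ND4L had 663, 894 and 728 CPM in p53 KO and 664, 753 and 894 CPM in p53 WT, and shares bases with MT-ND4, which makes its value as a single gene uncertain.

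The 3 catalytic core subunits of complex IV overlapped between the groups. MT-CO1, which holds the site where oxygen is reduced, had 7889, 8426 and 8876 CPM in p53 KO and 7439, 7784 and 8018 CPM in p53 WT (log2 fold change 0.12). MT-CO2, which takes electrons from cytochrome c, had 4885, 4971 and 6454 CPM in p53 KO and 5418, 4983 and 4528 CPM in p53 WT (0.13). MT-CO3 had 5778, 5814 and 6911 CPM in p53 KO and 6951, 6606 and 6226 CPM in p53 WT (-0.10). In all 3, p53 KO replicate 3 was the highest of its group. MT-ATP6, the proton channel subunit of the ATP synthase, had 4519, 4757 and 5099 CPM in p53 KO and 4662, 4774 and 4657 CPM in p53 WT (0.03). MT-ATP8, whose gene overlaps MT-ATP6 and is uncertain as a single gene for that reason, had 884, 1205 and 1207 CPM in p53 KO and 966, 980.2 and 1227 CPM in p53 WT (0.06).

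**Figure D3:**
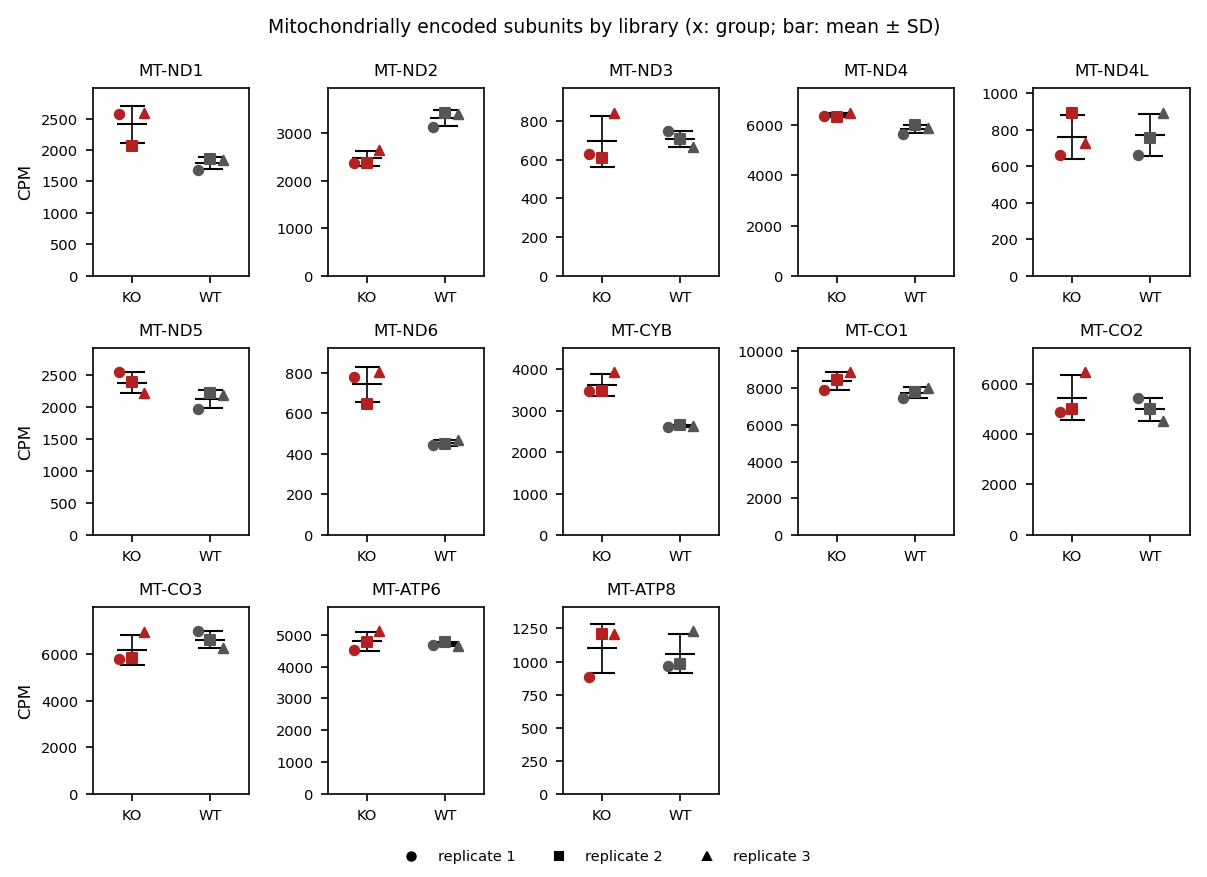
Level of each of the 13 mitochondrially encoded members (CPM, y axis from 0, a scale for each panel) in each library, with p53 KO left of p53 WT, a marker shape for each replicate, and bars for the mean ± SD (n = 3). The groups are apart for MT-ND6, MT-CYB and MT-ND1, which are higher in p53 KO, for MT-ND2, which is lower, and by a small margin for MT-ND4, which did not pass the test.

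In complex IV, cytochrome c oxidase, 6 of 12 tested nuclear subunits rose and 0 fell, beside 12.1% and 14.4% of all tested genes. Without p53 KO replicate 3 there were 3 and 0, beside 11.7% and 13.1%. After the local median offset there were 1 and 0, beside 9.47% and 10.2%. COX5A and COX4I1, early-assembling subunits that sit next to MT-CO1, had the largest log2 fold changes. COX5A had 124, 108 and 162 CPM in p53 KO against 78.0, 63.7 and 72.3 CPM in p53 WT, a log2 fold change of 0.88 (SE 0.14, edgeR adjusted p = 0.000323). COX4I1, the most abundant nuclear subunit of the complex by CPM, had 311, 301 and 388 CPM in p53 KO against 210.0, 186 and 180.2 CPM in p53 WT, a log2 fold change of 0.80 (SE 0.11, edgeR adjusted p = 0.000123). In both, every p53 KO library was above every p53 WT library, and replicate 3 was the highest of the p53 KO group.

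The other 4 are small subunits around the core. COX7C had 164, 157 and 196 CPM in p53 KO against 122, 106 and 113 CPM in p53 WT, a log2 fold change of 0.60 (SE 0.11, edgeR adjusted p = 0.000919). COX7B had 123, 119.5 and 175 CPM in p53 KO against 107, 99.3 and 98.6 CPM in p53 WT, and COX6A1 had 144, 152 and 207 CPM against 136, 119 and 116 CPM. NDUFA4, named for complex I but now placed in complex IV, had 159, 153 and 225 CPM in p53 KO against 151, 129.5 and 125 CPM in p53 WT. The log2 fold changes of these last 3 were 0.45, 0.44 and 0.40, and in each p53 KO replicate 3 stood above the other libraries of its group. Without that library COX7B, COX6A1 and NDUFA4 no longer passed (edgeR adjusted p = 0.0509, 0.0583 and 0.141), while COX5A, COX4I1 and COX7C did.

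The isoforms of complex IV that are known from heart and skeletal muscle, lung or testis were near or at 0 in both genotypes. COX4I2 and COX6A2 had no count in any library, which allows up to 0.147 CPM in the shallowest p53 KO library and 0.123 CPM in the shallowest p53 WT library (3 counts, counting error only). COX7B2, COX8C and COX6B2 fell below the filter, with at most 13 counts in a library. COX7A1 passed it at 0.445, 0.244 and 0.1002 CPM in p53 KO and 0.368, 0.178 and 0.534 CPM in p53 WT, against 70.1, 69.1 and 109 CPM and 75.6, 64.0 and 59.8 CPM for COX7A2. The widely expressed partners COX6B1, COX7A2, COX8A and COX5B had log2 fold changes of 0.30 to 0.35 without passing the test, with groups that overlapped. COX6C had 75.7, 71.5 and 104 CPM in p53 KO and 111, 86.4 and 82.8 CPM in p53 WT, a log2 fold change of -0.16 that did not pass either.

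In complex II, succinate dehydrogenase, which also serves the citric acid cycle, 2 of 4 subunits rose, beside 12.1% of all tested genes. SDHD, one of the membrane anchors that bind ubiquinone, had 107, 99.04 and 91.3 CPM in p53 KO against 62.4, 57.0 and 55.04 CPM in p53 WT, a log2 fold change of 0.77 (SE 0.11, edgeR adjusted p = 9.92e-05). SDHB, the iron-sulfur subunit, had 84.8, 81.8 and 94.7 CPM in p53 KO against 71.9, 66.1 and 61.4 CPM in p53 WT, a log2 fold change of 0.39 (SE 0.11, edgeR adjusted p = 0.0146). The groups did not overlap for either, and in SDHD p53 KO replicate 3 was the lowest of its group. SDHA, the flavoprotein that oxidises succinate, had 102, 109.6 and 126 CPM in p53 KO and 115, 116 and 119.7 CPM in p53 WT, and the other anchor, SDHC, had 33.5, 36.5 and 38.6 CPM in p53 KO and 33.2, 30.7 and 39.0 CPM in p53 WT. Neither passed the test. Rows named as SDHA pseudogenes held counts equal to 22.02% of those of SDHA, so the split of reads between them makes the SDHA value uncertain.

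Complex I, NADH dehydrogenase, is built from a matrix arm that takes electrons from NADH and a membrane arm that pumps protons. Of 16 nuclear subunits of the matrix arm 3 were higher and 1 was lower, beside 12.1% and 14.4% of all tested genes. Without p53 KO replicate 3 there were 2 and 2, beside 11.7% and 13.1%. NDUFV2, an iron-sulfur subunit of the NADH-oxidising end, had 90.1, 77.2 and 99.7 CPM in p53 KO against 62.3, 56.5 and 47.2 CPM in p53 WT, a log2 fold change of 0.68 (SE 0.13, edgeR adjusted p = 0.00118). NDUFA12, an accessory subunit, had 41.0, 44.0 and 60.1 CPM in p53 KO against 35.7, 38.5 and 34.2 CPM in p53 WT (log2 fold change 0.41) and did not pass without p53 KO replicate 3 (edgeR adjusted p = 0.142). NDUFV3, an accessory subunit of the NADH-oxidising end, went the other way, with 28.9, 26.9 and 28.1 CPM in p53 KO against 42.2, 35.4 and 39.0 CPM in p53 WT, a log2 fold change of -0.47 (SE 0.12, edgeR adjusted p = 0.00866). The ranges of the groups were apart in these 3 genes.

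Of 20 nuclear subunits of the membrane arm 5 were higher and 2 were lower, beside 12.1% and 14.4% of all tested genes. Without p53 KO replicate 3 there were 4 and 6, beside 11.7% and 13.1%. NDUFA3 had 32.0, 33.0 and 40.3 CPM in p53 KO against 25.1, 22.8 and 24.97 CPM in p53 WT, and NDUFB4 had 122, 123 and 160.3 CPM against 106, 88.4 and 88.0 CPM. NDUFB11 had 73.5, 72.2 and 85.6 CPM in p53 KO against 63.4, 53.01 and 48.7 CPM in p53 WT. These 3 accessory subunits rose by 0.53, 0.52 and 0.48 on the log2 scale, with groups that did not overlap. NDUFB3 had 45.9, 42.7 and 55.4 CPM in p53 KO against 36.7, 35.1 and 37.2 CPM in p53 WT (log2 fold change 0.40). NDUFC2 had 137, 111 and 123 CPM in p53 KO against 105, 93.0 and 85.8 CPM in p53 WT (0.39). Of these 5, NDUFB3 no longer passed without p53 KO replicate 3 (edgeR adjusted p = 0.0637).

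The 2 membrane arm subunits that fell were NDUFB5 and NDUFB10. NDUFB5 had 35.1, 33.3 and 33.4 CPM in p53 KO against 53.6, 52.3 and 46.3 CPM in p53 WT, a log2 fold change of -0.58 (SE 0.11, edgeR adjusted p = 0.00139), with little spread in p53 KO. NDUFB10 had 47.6, 45.1 and 57.4 CPM in p53 KO against 70.1, 58.2 and 64.8 CPM in p53 WT, a log2 fold change of -0.37 with groups that nearly touched. The most abundant nuclear subunits of complex I by CPM did not pass: NDUFA9 had 246, 233 and 286 CPM in p53 KO and 252, 237 and 223 CPM in p53 WT, and NDUFB9 had 204, 196 and 269 CPM in p53 KO and 281, 243 and 239.6 CPM in p53 WT. NDUFB1, a small subunit of the membrane arm, was spread within p53 KO, with 5.60, 9.10 and 14.4 CPM in p53 KO and 18.5, 16.6 and 12.1 CPM in p53 WT. Its log2 fold change of -0.73 did not pass with all libraries (edgeR adjusted p = 0.0654), and it was -1.104 without p53 KO replicate 3 (edgeR adjusted p = 0.00198). The 25 nuclear subunits of complex I that did not pass had log2 fold changes of -0.73 to 0.48. NDUFB9, NDUFB6, NDUFA6 and NDUFA10 were also among the 8 members that were added to the lower calls when that library was left out, and NDUFB1, NDUFB6 and NDUFA6 were called lower too with all libraries after the coding-length offset.

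Complex III, ubiquinol to cytochrome c, had 0 nuclear subunits called higher and 2 lower of 8, with a median of -0.10. The shares over all tested genes were 12.1% and 14.4%. Without p53 KO replicate 3 there were 0 and 4, beside 11.7% and 13.1%. After the local median offset there were 1 and 1, beside 9.47% and 10.2%, and the median was 0.13. UQCRC2, a core protein of its matrix side, had 55.9, 57.9 and 66.2 CPM in p53 KO against 86.7, 84.8 and 88.8 CPM in p53 WT, a log2 fold change of -0.53 (SE 0.10, edgeR adjusted p = 0.00159). UQCR11, the smallest subunit of complex III by coding length, had 88.5, 92.5 and 114 CPM in p53 KO against 142, 121 and 128 CPM in p53 WT, a log2 fold change of -0.41 (SE 0.11, edgeR adjusted p = 0.0163). Both fell without overlap of the groups. UQCRC1, the partner of UQCRC2, had 221, 212 and 250.2 CPM in p53 KO and 206, 174 and 179 CPM in p53 WT, above p53 WT in every library but just outside the threshold (log2 fold change 0.29, edgeR adjusted p = 0.0528). UQCRFS1, the Rieske iron-sulfur protein, had 147, 138 and 174 CPM in p53 KO and 169.6, 146 and 132 CPM in p53 WT. Of the other 4, UQCRH and UQCR10 were called lower without p53 KO replicate 3, with log2 fold changes of -0.36 and -0.39, while UQCRB and UQCRQ had 0.28 and 0.12 with all libraries and did not pass.

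In the ATP synthase the nuclear subunits went in both directions, 4 higher and 4 lower of 16 tested, beside 12.1% and 14.4% of all tested genes. Without p53 KO replicate 3 there were 2 and 5, beside 11.7% and 13.1%. ATP5O, which ties the catalytic head to the peripheral stalk, had 234, 222 and 284 CPM in p53 KO against 163, 147 and 145 CPM in p53 WT, a log2 fold change of 0.70 (SE 0.11, edgeR adjusted p = 0.000281). ATP5B, the catalytic beta subunit and the most abundant nuclear member by CPM, had 646, 642 and 719.6 CPM in p53 KO against 574, 523 and 531 CPM in p53 WT, a log2 fold change of 0.30 (SE 0.09, edgeR adjusted p = 0.0217). ATP5A1, the alpha subunit that alternates with beta in the head, had 374, 357 and 386 CPM in p53 KO against 514, 479.6 and 464 CPM in p53 WT, a log2 fold change of -0.38 (SE 0.09, edgeR adjusted p = 0.00492). Beta was thus higher and alpha lower, each without overlap of the groups, but not after the local median offset given by neighbouring genes, under which ATP5B had 0.11 (edgeR adjusted p = 0.447) and ATP5A1 0.25.

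ATP5E, the epsilon subunit of the central shaft, had 250.1, 239 and 366 CPM in p53 KO against 247, 183 and 195 CPM in p53 WT. It rose by 0.45 on the log2 scale although its groups overlapped, and it did not pass without p53 KO replicate 3 (edgeR adjusted p = 0.145). In the peripheral stalk, where ATP5O was higher, ATP5H had 68.4, 68.5 and 94.3 CPM in p53 KO against 109, 101 and 101 CPM in p53 WT, a log2 fold change of -0.43. ATP5F1, the b subunit of that stalk, had 243, 239 and 263 CPM in p53 KO against 311, 319.6 and 288 CPM in p53 WT (-0.30). ATP5S, an accessory factor rather than a core subunit, had 13.7, 11.3 and 11.4 CPM in p53 KO against 21.6, 20.1 and 16.3 CPM in p53 WT (-0.67). These 3 fell without overlap of the groups.

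The c subunit, which forms the rotating ring, comes from 3 genes that give the same mature protein. ATP5G3 had 197, 190.1 and 229 CPM in p53 KO against 179.7, 158 and 148 CPM in p53 WT, and rose by 0.34 on the log2 scale, but not without p53 KO replicate 3 (edgeR adjusted p = 0.0584). ATP5G2 had 158, 171 and 214 CPM in p53 KO and 191, 154 and 163 CPM in p53 WT, and ATP5G1 had 70.6, 68.1 and 101 CPM in p53 KO and 77.0, 68.1 and 67.2 CPM in p53 WT. Neither of these passed. Their named pseudogenes held counts equal to 6.77% of those of ATP5G1 and 6.71% of those of ATP5G2. ATP5L2 fell below the filter with 1 count in all. The other 6 tested subunits, ATP5C1, ATP5D, ATP5J, ATP5I, ATP5J2 and ATP5L, did not pass the test, with log2 fold changes of -0.40 for ATP5D and 0.12 to 0.35 for the rest. ATP5D was just outside the threshold (edgeR adjusted p = 0.0516). It was called lower without p53 KO replicate 3 (log2 fold change -0.53, edgeR adjusted p = 0.0059), after the coding-length offset and by DESeq2. After the local median offset ATP5D had -0.08 and did not pass.

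**Figure D4:**
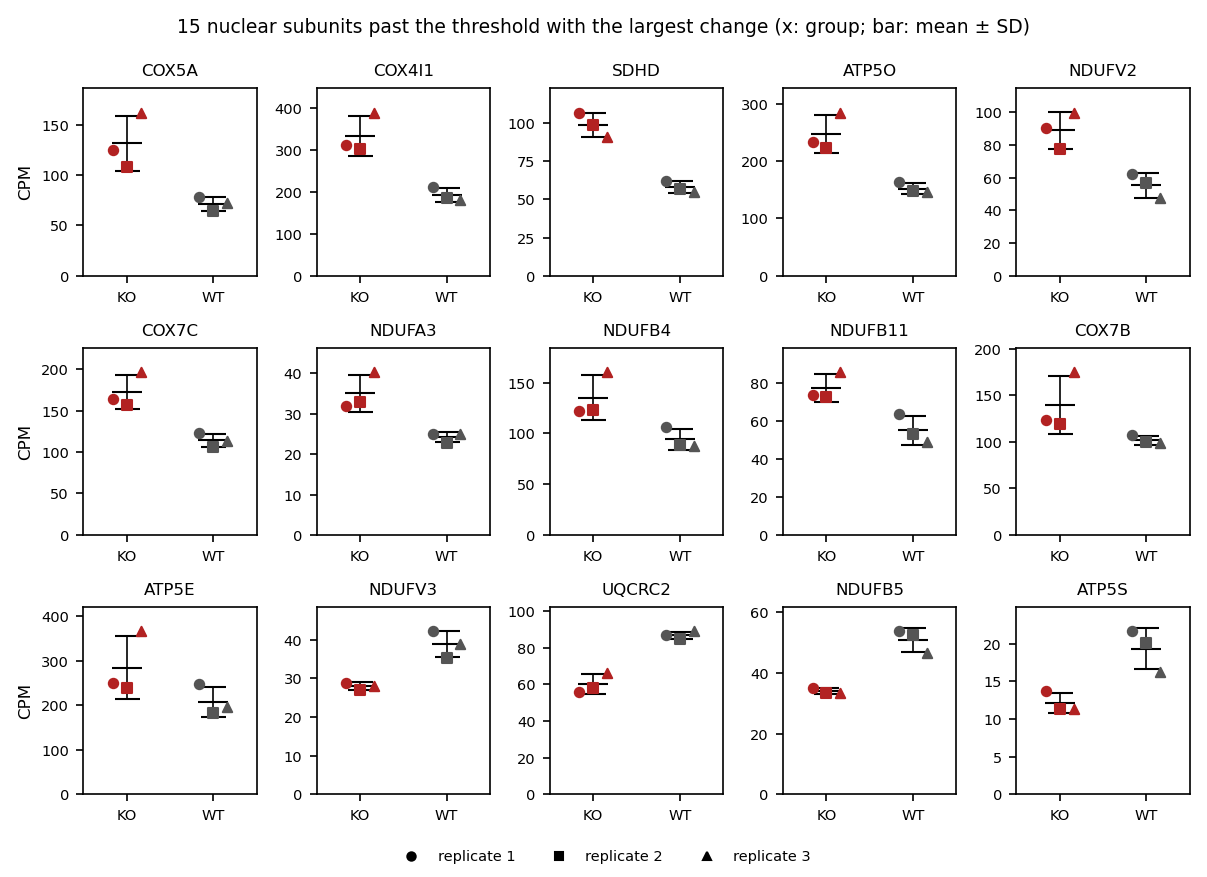
Level of the 15 nuclear members past the threshold with the largest log2 fold changes (CPM, y axis from 0, a scale for each panel) in each library, with p53 KO left of p53 WT, a marker shape for each replicate, and bars for the mean ± SD (n = 3). In the first 11 genes p53 KO averages higher, with its replicate 3 (triangle) on top in all but SDHD, and in NDUFV3, UQCRC2, NDUFB5 and ATP5S p53 KO lies lower.

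Summed over nuclear members, complex II had 328, 327 and 351 CPM in p53 KO libraries and 283, 269 and 275 CPM in p53 WT libraries, and complex IV had 1529, 1477 and 2076 CPM in p53 KO and 1368, 1163 and 1129 CPM in p53 WT. These sums did not overlap between the groups. For complex I they were 2623, 2537 and 3323 CPM in p53 KO against 2904, 2523 and 2484 CPM in p53 WT, for complex III 884, 859 and 1116 CPM against 1078, 909 and 916 CPM, and for complex V 2837, 2761 and 3397 CPM against 3020.2, 2708 and 2634 CPM. In those 3 complexes the groups overlapped, with the highest p53 KO sum in replicate 3 and the highest p53 WT sum in replicate 1.

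The log2 fold changes of nuclear subunits ran with those of the genes around them. For each nuclear gene the median log2 fold change of up to 50 expressed protein-coding genes around it was taken, without the gene itself. These were taken in equal numbers on either side by start position, with fewer near the ends of chromosomes. This local median ran from -0.96 to 0.64 over the 76 nuclear members, and across them the subunit's own log2 fold change followed it with Pearson's r of 0.78 and Spearman's rho of 0.72. These points share libraries and some share neighbours, and the coefficients are a description. All 13 members whose local median was at least 0.4 in size had a log2 fold change of the same sign, and 25 of the 29 nuclear members called did too. The neighbours of COX5A on chromosome 15 had a local median of 0.64, those of SDHD on chromosome 11 had 0.56, those of COX4I1 on chromosome 16 had 0.55, those of NDUFV2 on chromosome 18 had 0.47 and those of ATP5E on chromosome 20 had 0.47. On the other side, the neighbours of NDUFB1 and ATP5S on chromosome 14 had -0.96 and -0.61, and those of ATP5A1 on chromosome 18 had -0.63.

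**Figure D5:**
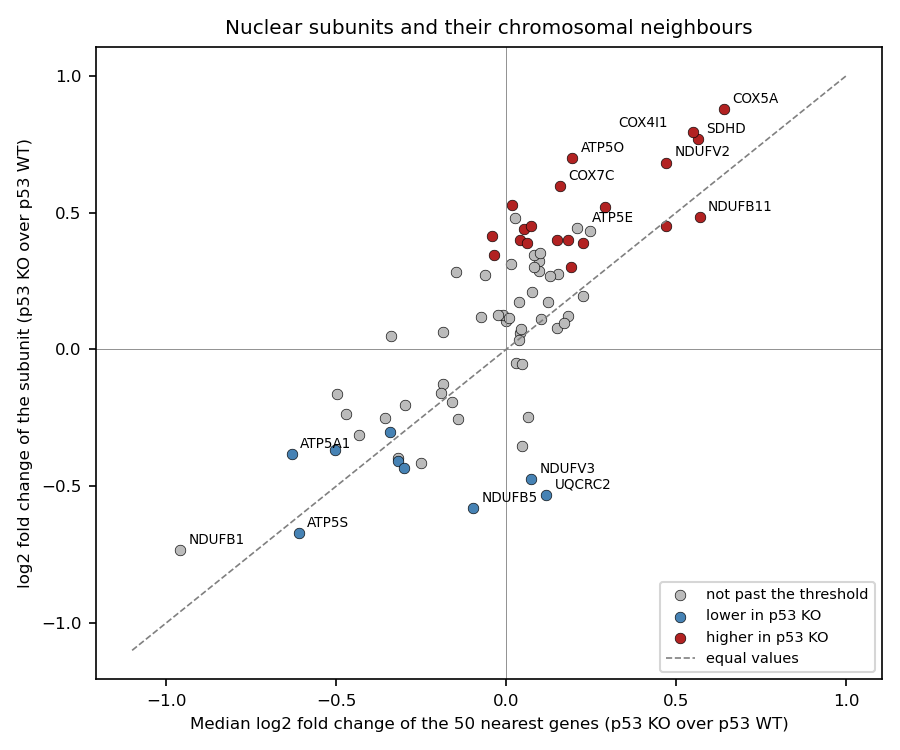
Log2 fold change of each of the 76 tested nuclear subunits (p53 KO over p53 WT, y axis) against the median log2 fold change of up to 50 expressed protein-coding genes around it (x axis), with a dashed line where they are equal. COX5A, SDHD, COX4I1 and NDUFV2 lie at the upper right near their neighbours, NDUFB1, ATP5S and ATP5A1 at the lower left, and UQCRC2, NDUFV3, NDUFB5, COX7C and ATP5O away from the line.

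With the local median taken off each nuclear gene, 10 members were higher and 4 lower, where the shares over all tested genes were 9.47% and 10.2%, or 19.6% in either direction. Of the first 33 calls 13 were held, and UQCRB was added (log2 fold change 0.43 after the offset, edgeR adjusted p = 0.0253). The nuclear members held were SDHB, NDUFA12, NDUFA3, COX7C, ATP5O and ATP5G3, higher in p53 KO, and NDUFB5, UQCRC2 and NDUFV3, lower. After the offset COX5A had a log2 fold change of 0.24, COX4I1 0.25, SDHD 0.21 and NDUFV2 0.21, none past the threshold. ATP5A1 had 0.25 in place of -0.38 (edgeR adjusted p = 0.0633), ATP5F1 0.04 and NDUFB10 0.14, so the direction of these 3 turned. UQCRC2 lay at -0.65, beyond its value without the offset, because its neighbours had a local median of 0.12. Why neighbouring genes moved together was not tested.

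The 5 nuclear members called the same way in each of the 15 alternatives were COX7C and ATP5O, higher in p53 KO, and NDUFB5, UQCRC2 and NDUFV3, lower. Their log2 fold changes ran from 0.44 to 0.65 for COX7C, 0.50 to 0.76 for ATP5O, -0.65 to -0.48 for NDUFB5, -0.65 to -0.48 for UQCRC2 and -0.55 to -0.42 for NDUFV3. A further 8, among them COX5A, COX4I1, SDHD, NDUFV2 and ATP5A1, were lost under the local median alone.

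Promoters are shown for the 4 of these 5 genes with an entry in RefSeq's promoter table (GRCh38.p14), which runs from 250 bases before to 50 after the gene's start. They were searched on both strands for letters bound by factors known to act on respiratory genes: GCGCNTGCG for NRF1, CCGGAAG for ETS factors, AAGATGGC for YY1 and AAGGTCA for ERR nuclear receptors. Capitals mark a match.
ATP5O, chr21:33915755-33916054, minus strand: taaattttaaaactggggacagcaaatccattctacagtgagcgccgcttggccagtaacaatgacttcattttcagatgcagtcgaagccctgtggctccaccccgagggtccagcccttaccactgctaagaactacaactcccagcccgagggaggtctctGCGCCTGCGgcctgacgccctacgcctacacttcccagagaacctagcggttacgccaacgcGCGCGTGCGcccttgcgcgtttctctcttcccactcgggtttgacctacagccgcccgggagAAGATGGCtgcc
COX7C, chr5:86617691-86617990, plus strand: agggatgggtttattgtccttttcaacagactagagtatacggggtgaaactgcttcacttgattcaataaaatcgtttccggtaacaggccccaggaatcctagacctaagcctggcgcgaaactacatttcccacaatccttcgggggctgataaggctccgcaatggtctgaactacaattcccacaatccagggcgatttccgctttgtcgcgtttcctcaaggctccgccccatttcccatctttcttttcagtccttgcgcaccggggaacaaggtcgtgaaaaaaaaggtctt
UQCRC2, chr16:21953111-21953410, plus strand: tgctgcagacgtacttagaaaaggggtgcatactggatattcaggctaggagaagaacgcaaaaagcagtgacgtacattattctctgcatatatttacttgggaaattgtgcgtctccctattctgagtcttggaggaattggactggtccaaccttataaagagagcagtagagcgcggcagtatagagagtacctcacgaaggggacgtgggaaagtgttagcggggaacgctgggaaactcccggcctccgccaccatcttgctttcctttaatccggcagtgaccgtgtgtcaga
NDUFV3, chr21:42893059-42893358, plus strand: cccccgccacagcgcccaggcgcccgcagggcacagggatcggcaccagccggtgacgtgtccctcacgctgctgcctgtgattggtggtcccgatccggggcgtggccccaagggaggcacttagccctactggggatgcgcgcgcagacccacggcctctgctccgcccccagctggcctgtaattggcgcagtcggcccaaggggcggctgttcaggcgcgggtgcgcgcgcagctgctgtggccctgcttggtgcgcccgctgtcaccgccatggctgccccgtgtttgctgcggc

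Only ATP5O among these 4 held a match, 2 for NRF1 and 1 for YY1. Of the 82 nuclear members 66 matched the table, 62 of them tested. Of these 62, 21 (33.9%) held the NRF1 letters, against 7.47% of all 35116 promoters in the table. The 62 belong to tested genes and the 35116 are every entry, tested or not, so the sets are unlike. The ETS letters were in 19 (30.6% against 10.3%), those of YY1 in 11 (17.7% against 2.89%) and those of ERR in 8 (12.9% against 3.92%). Among the 16 tested members with a promoter that were higher in p53 KO, 6 held NRF1, 4 ETS, 3 YY1 and 3 ERR letters, and among the 7 that were lower the counts were 1, 2, 1 and 0. These numbers are small, and a match to letters is not a bound site.

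In the authors' deposited table, where a positive log2 fold change stands for a higher level in p53 WT, 12 of the 89 tested members were higher in p53 KO and 7 were lower at an adjusted p under 0.05, against 9.64% and 11.2% of the genes in it with an adjusted p. The same table marks genes that intersect a p53 cistrome, a set of p53 binding places, and marked 0 of the 89 tested members and 0.555% of all tested genes. In the authors' deposited table MT-ND6 had -0.74, MT-CYB -0.49, MT-ND1 -0.45 and MT-ND2 0.40 as log2 of p53 WT against p53 KO, all past that threshold.

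Genes around the chain were described from fixed lists. Of 47 assembly factors 6 were higher and 4 lower, with a median log2 fold change of 0.03, beside 12.1% and 14.4% over all tested genes. After the local offset 2 were higher and 0 lower, beside 9.47% and 10.2%. COX17, a copper chaperone for complex IV, had 40.3, 43.4 and 54.2 CPM in p53 KO against 21.3, 18.0 and 20.9 CPM in p53 WT, a log2 fold change of 1.19 (SE 0.14, edgeR adjusted p = 2.49e-05), and 0.90 with the local median taken off. This was above any subunit called. CMC2, another complex IV assembly factor, rose by 0.86 and ACAD9, a complex I assembly factor, by 0.57, and neither passed after the local offset (0.27 and 0.25). TIMMDC1, TMEM70 and COX19 were also higher, but TIMMDC1 and COX19 did not pass after the offset (0.0086 and 0.11), and TMEM70 did not pass without p53 KO replicate 3 (edgeR adjusted p = 0.0973). SCO2, a copper-handling factor of complex IV known as a p53 target, had 10.6, 11.1 and 15.03 CPM in p53 KO against 21.9, 24.0 and 16.8 CPM in p53 WT, a log2 fold change of -0.79 (edgeR adjusted p = 0.00513). The neighbours of SCO2 had a local median of -0.65, and after the offset it had -0.13 and did not pass. COX16, PET117 and TACO1 were the other 3 that fell, and none of them passed after the offset, where COX16 had 0.15, PET117 -0.58 and TACO1 -0.27.

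Of 7 tested subunits that the symbols leave out, NDUFAB1, the acyl carrier protein of complex I, rose by 0.41 (0.21 after the local offset, which did not pass), and C14orf2, a small subunit of the ATP synthase, had a log2 fold change of -0.65, with 24.9, 24.4 and 38.6 CPM in p53 KO against 56.1, 40.4 and 40.7 CPM in p53 WT. After the local offset C14orf2 had 0.35 and did not pass. CYCS, cytochrome c itself, had 268, 236 and 261 CPM in p53 KO and 300.3, 288 and 261 CPM in p53 WT and did not pass.

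Among 31 genes of mitochondrial DNA transcription and RNA handling 5 were higher and 5 lower, with a median of 0.05, beside the 12.1% and 14.4% of all tested genes. After the local offset 5 were higher and 1 lower, beside 9.47% and 10.2%, and the 5 higher were not all the same genes. MGME1, a nuclease of mitochondrial DNA, had 45.4, 37.3 and 39.2 CPM in p53 KO against 69.5, 66.1 and 70.0 CPM in p53 WT, a log2 fold change of -0.75, and -0.52 after the local offset (edgeR adjusted p = 0.00428). FASTKD5, which acts in cutting mitochondrial precursor RNA where no tRNA marks the ends, had 35.1, 31.7 and 31.1 CPM in p53 KO against 19.4, 20.6 and 21.2 CPM in p53 WT, a log2 fold change of 0.68, and 0.56 after the offset (edgeR adjusted p = 0.00514). POLG, the mitochondrial DNA polymerase, rose by 0.64, and had 0.01 after the offset. TFAM, which packs mitochondrial DNA and starts its transcription, had 105, 92.3 and 81.3 CPM in p53 KO against 126, 135 and 124 CPM in p53 WT, a log2 fold change of -0.47, and 0.04 after the offset. POLRMT, the mitochondrial RNA polymerase, fell by 0.44 on the log2 scale and had -0.16 after the offset, which did not pass.

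Of 11 tested regulators of mitochondrial biogenesis 1 was higher and 1 lower, with a median of 0.14, beside 12.1% and 14.4% of all tested genes. After the local offset 2 were higher, YY1 but not TFEB among them, and 0 lower, beside 9.47% and 10.2%. TFEB, a transcription factor of lysosomal genes, had 8.22, 5.83 and 5.71 CPM in p53 KO against 4.24, 4.12 and 3.74 CPM in p53 WT (log2 fold change 0.71, edgeR adjusted p = 0.0366). After the local offset TFEB had 0.61 and did not pass (edgeR adjusted p = 0.0888), nor did it with the replicate block (edgeR adjusted p = 0.0602). YY1 had 80.9, 82.2 and 71.0 CPM in p53 KO against 98.6, 97.7 and 91.6 CPM in p53 WT, a log2 fold change of -0.30 (edgeR adjusted p = 0.0422). YY1 did not pass without p53 KO replicate 3 (-0.22, edgeR adjusted p = 0.113) or with the replicate block (edgeR adjusted p = 0.0749). Its neighbours on chromosome 14 had a local median of -0.995, so after the offset it lay at 0.70 (edgeR adjusted p = 0.000226). PPRC1, a coactivator of respiratory genes, had a log2 fold change of -0.23 and did not pass.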

How the data were processed

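Polyadenylated RNA was sequenced with a stranded TruSeq mRNA kit, per the labels' protocols. The authors deposited raw counts per gene for each library. They also deposited a table with log2 fold changes, mean normalised signal, a test score, p-values and adjusted p-values. Reads were trimmed with fastp 0.21.0, aligned with HISAT2 2.1.0 to GRCh37 (hg19) and tested with DESeq2 1.3.6, per the submitters' processing notes, which name these without their order. The sources used here do not give the counter, the annotation or the strand setting. In every row of the authors' deposited table the log2 fold change and the score had opposite signs. Since CDKN1A was positive there, its positive values were taken to mean a higher level in p53 WT.

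Differences were tested on these counts by the quasi-likelihood F-test of edgeR 4.0.16 (R 4.3.3, TMM factors of 0.979 to 1.02, filterByExpr, Benjamini-Hochberg over 22352 genes, threshold 0.05). A positive fold change means higher in p53 KO, and each SE is the fold change over the square root of F. CPM values are TMM-scaled, while shares of counts and ratios are not. The precision of shares covers counting error only. Replicates correlated at 0.954 to 0.979 within groups and 0.924 to 0.946 between them, and no pair agreed within sampling noise (chi-square per degree of freedom of at least 16.7). Same-numbered libraries did not deviate together (correlations of 0.02, 0.03 and -0.03), so numbers were not taken as pairs.

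Gene order came from RefSeq, over 12106 genes of at least 2 CPM, and coding lengths and mitochondrial sequences from GENCODE 29. The script steps were tested on simulated data. Members and lists were chosen with earlier results of these data known. Some genes that the rules name are left out of the text. Named with values were all mitochondrial members, nuclear members past the threshold, the 2 most abundant nuclear members of each complex, isoform sets, CDKN1A and MDM2, and, from each list, its 3 genes of smallest adjusted p. Other genes were named after their values were seen, namely MTND2P28, MTND1P23, MT-TE, MT-RNR2, TFAM, POLRMT, SCO2, NDUFB1 the other assembly factors called, and the remaining members called or close to the threshold. Alternatives were RLE factors, library totals, totals without mitochondrial rows, no filter, 1 CPM in 3 libraries, DESeq2 1.42.0, a replicate block, the local median, and each library left out. The coding-length offset was chosen after seeing the data.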

Additional observations from a re-analysis of the deposited data

How the results depend on the processing

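The count of all genes called stayed within 1.5 times of its value under all alternatives run. The counts of members moved with the local median offset, to 10 higher and 4 lower, and with single libraries. Leaving out each library gave 11 to 27 higher and 6 to 18 lower, with the highest count of lower members without p53 KO replicate 3. With the replicate block there were 17 higher and 8 lower, against 10.3% and 12.8% of all genes, all among the calls without it; the numbers are not known to pair the libraries. DESeq2 gave 24 and 12, with 11.8% and 13.2% of all genes. Directions were compared for the 97 genes named. Under the local median the direction turned for 9 that had passed, at ATP5A1 (0.25), ATP5E (-0.021), ATP5F1 (0.039), C14orf2 (0.35), COX16 (0.15), NDUFB10 (0.14), NDUFB11 (-0.085), TFAM (0.040) and YY1 (0.70), and for values that had not, at ATP5G2 (-0.074), ATP5L (-0.032), COX6C (0.031), NDUFA6 (0.12), NDUFB1 (0.22), PPRC1 (0.011), SDHC (-0.071), UQCR10 (0.24), UQCRFS1 (-0.0059) and UQCRH (0.11). With library totals only, MT-ND4L had 0.0046. Leaving out single libraries turned the direction of 11 values that had not passed, whose ranges then were -0.0069 to 0.071 for MT-ATP6, -0.022 to 0.19 for MT-ATP8, -0.0027 to 0.20 for MT-CO2, -0.18 to 0.054 for MT-ND3, -0.15 to 0.097 for MT-ND4L, -0.030 to 0.13 for MT-RNR2, -0.13 to 0.015 for SDHA, -0.055 to 0.13 for UQCRFS1, -0.10 to 0.25 for UQCRQ, -0.018 to 0.27 for ATP5G1 and -0.028 to 0.19 for ATP5G2. The causes were not tested. Depth was lowest in p53 KO replicate 3 and p53 WT replicate 3, where 3 counts are 0.147 and 0.123 CPM.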
